A study of Mus musculus with 7 samples.

Results

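The proteasome subunit genes were taken by name, as every gene of the expression table whose symbol begins with Psma, Psmb, Psmc, Psmd, Psme, Psmf or Psmg and a number, without pseudogenes, and which reached 1 FPKM (fragments, scaled by transcript length and library size) in at least 2 of the 7 libraries. Such a symbol was carried by 51 of the 52224 genes, and 50 of them reached that level, as did 13865 genes in all. The 1 that did not was Psmb11, the catalytic subunit of the thymoproteasome of thymic cortical epithelium, at 0.02, 0.01 and 0 FPKM in the DMSO libraries, 0.55 and 0.23 in Gem and 0.30 and 0.20 in HU. Just inside the limit, Psma8, the testis form of an alpha subunit, lay between 2.60 and 8.04 FPKM, and the next lowest gene, Psme4, lay between 5.68 and 9.38 FPKM. A pair of genes that share only the name was set aside: Psmc3ip, a cofactor of meiotic recombination, and Psme3ip1, which encodes a protein that binds Psme3. That left 48 genes, of which 15 encode the core particle, 3 the immunoproteasome subunits, 17 the regulatory particle, and 13 the activators, the inhibitor and the assembly chaperones.

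The 26S proteasome is the protease that degrades ubiquitin-tagged proteins. Its core particle is a barrel of stacked rings, with outer alpha rings that gate the entrance and inner beta rings that hold the active sites; Psmb6, Psmb7 and Psmb5 encode the caspase-like, trypsin-like and chymotrypsin-like sites, known as beta1, beta2 and beta5. In immune and blood cells, and wherever interferon-gamma acts, Psmb9, Psmb10 and Psmb8 can take their places, which gives the immunoproteasome and changes which peptides are made for MHC class I. The regulatory particle binds ubiquitin chains with its lid and base, removes them and threads the substrate into the core with a ring of ATPases. Haematopoietic stem cells are known to keep protein synthesis low and to be sensitive to a loss of proteasome activity.

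The libraries came from haematopoietic stem cells of the bone marrow of wild-type C57BL/6J mice, sorted as CD48-CD150+LSK cells. The cells were held in culture for 48 h with DMSO as the vehicle (DMSO, 3 libraries), with 0.5 µM gemcitabine (Gem, 2 libraries) or with 100 µM hydroxyurea (HU, 2 libraries). Gemcitabine is a deoxycytidine analogue and hydroxyurea an inhibitor of ribonucleotide reductase, and both block DNA replication. Whether replicate libraries derive from different animals or dishes is not stated in the labels; the p-values therefore measure only how far these libraries differ, part of which may be technical.

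Some facts of the whole libraries touch every result. The 3 DMSO libraries held a total of 818775 to 832979 FPKM, against 703016 to 729258 in Gem and 647760 to 651315 in HU, while 21251 to 23047, 27887 to 29158 and 29687 to 31153 genes were above 0. The median log2 fold change of all tested genes was -0.25 in Gem and -0.30 in HU, and 0.0033 and 0.0056 after trimmed-mean scaling of the libraries. The counts over the 48 genes and many other results are therefore given both as deposited and after scaling. Values given without mention of another setting are as deposited. The depth of the libraries is unknown. Stem cell markers were partly at or near 0 (Fgd5 at 0 to 0.50 FPKM and Slamf1, the CD150 gene of the sort, at 0.41 to 1.25), and the 8 of them summed to 216 to 233 FPKM under DMSO, against 176 to 198 (Gem) and 162 to 163 (HU). Of these sums Cd34 alone made up 117 to 128, 115 to 124 and 98.3 to 100 FPKM. Ly6a and Kit were lower in every treated library than in DMSO. Fgd5 was higher in each (0.17 to 0.21 FPKM in Gem and 0.43 to 0.50 in HU, against 0 to 0.05). Each of the others overlapped with DMSO in Gem, in HU or in both. The 6 neutrophil and monocyte markers summed to 34910 to 39543, 45333 to 46600 and 41996 to 45491 FPKM, of which Lyz2 alone made up 21718 to 30761, 34347 to 35554 and 32469 to 36422. S100a9 and S100a8 were lower in HU than in DMSO (1141 to 1198 FPKM against 1730 to 2793, and 2588 to 2743 against 2990 to 4954), Csf1r was lower in both drugs (237 to 241 and 234 to 248 against 254 to 299), and Elane and Mpo overlapped with DMSO. The 3 antigen-presenting markers (Itgax, Cd74 and H2-Aa) summed to 533 to 694, 522 to 536 and 523 to 659.8 FPKM, and the 2 megakaryocyte ones to 1627 to 2585, 1579 to 1689 and 1247 to 1477. Within the former, H2-Aa was lower in every treated library (134 to 138 FPKM in Gem and 97.05 to 136 in HU, against 178 to 224). Cd74 and Itgax overlapped with DMSO in both drugs, with a Cd74 mean of 469 FPKM in HU against 386 in DMSO. The sums of the 3 erythroid markers (16.1 to 42.1, 8.43 to 9.04 and 12.2 to 13.6 FPKM) and of the 2 mast cell markers (73.3 to 156, 65.99 to 69.8 and 47.8 to 55.3) were lower in every treated library than in DMSO. Among the erythroid genes this held by itself only for Hbb-bs. Hba-a1 in HU replicate 2 (6.15 FPKM) and Klf1 in Gem replicate 1 (0.98) were above DMSO replicate 1 (5.43 and 0.94). The 2 stromal markers summed to 0.37 to 1.84, 0.71 to 2.1 and 0.83 to 1.48 FPKM, and the 3 lymphoid ones to 0.08 to 0.69, 0.61 to 0.85 and 0.90 to 1.67. The part of these markers in the results was not tested. In such bulk libraries fewer cells of a type and less RNA per cell cannot be told apart.

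Together the 48 genes made up 7155 ± 378 FPKM in DMSO (SD, n = 3), 4944 ± 254 in Gem (n = 2) and 4456 ± 72.4 in HU (n = 2). As a share of all FPKM this was 0.868% ± 0.0383 in DMSO, 0.690% ± 0.0175 in Gem and 0.686% ± 0.0085 in HU, so the share was lower in all 4 treated libraries than in the 3 DMSO libraries. The sum thus differed from that of DMSO by -30.9% in Gem and -37.7% in HU. The difference was -34.8% and -41.7% in the core genes, -34.8% and -40.1% in the immunoproteasome genes, -23.3% and -29.5% in the regulatory particle and -28.1% and -36.9% in the accessory genes. These genes are abundant: the median of their mean DMSO levels was 115.6 FPKM, against 9.44 for all tested genes.

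Of the 48 genes, 37 fell in Gem and 0 rose by limma with Benjamini-Hochberg adjusted p-values, where 23.2% of the 13865 tested genes fell and 1.5% rose. In HU 42 of 48 fell and 0 rose, against 35.5% and 4.46% of the tested genes. The median log2 fold change of FPKM + 1 was -0.50 in Gem and -0.67 in HU, or -0.26 and -0.37 relative to the median of all tested genes. Without overlap of the groups, 41 of 48 genes were lower in Gem and 45 in HU, compared with 50.4% and 53.9% of all tested genes. The 37 genes that fell in Gem were all among the 42 of HU; the 2 comparisons share the DMSO libraries. After scaling, 4 of 48 genes fell in Gem (Psmb5, Psmb7, Psme3 and Psmg3) where 0.512% of tested genes did, and 19 in HU where 5.74% did; 0 rose, against 0.476% and 4.62% of tested genes. The scaled medians relative to all tested genes were -0.22 and -0.33. The Gem count as deposited rested on 1 library: without Gem replicate 2 it was 0 in place of 37 by adjusted p (37 at an unadjusted p under 0.05), with 0 of the tested genes called lower.

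**Figure D1:**
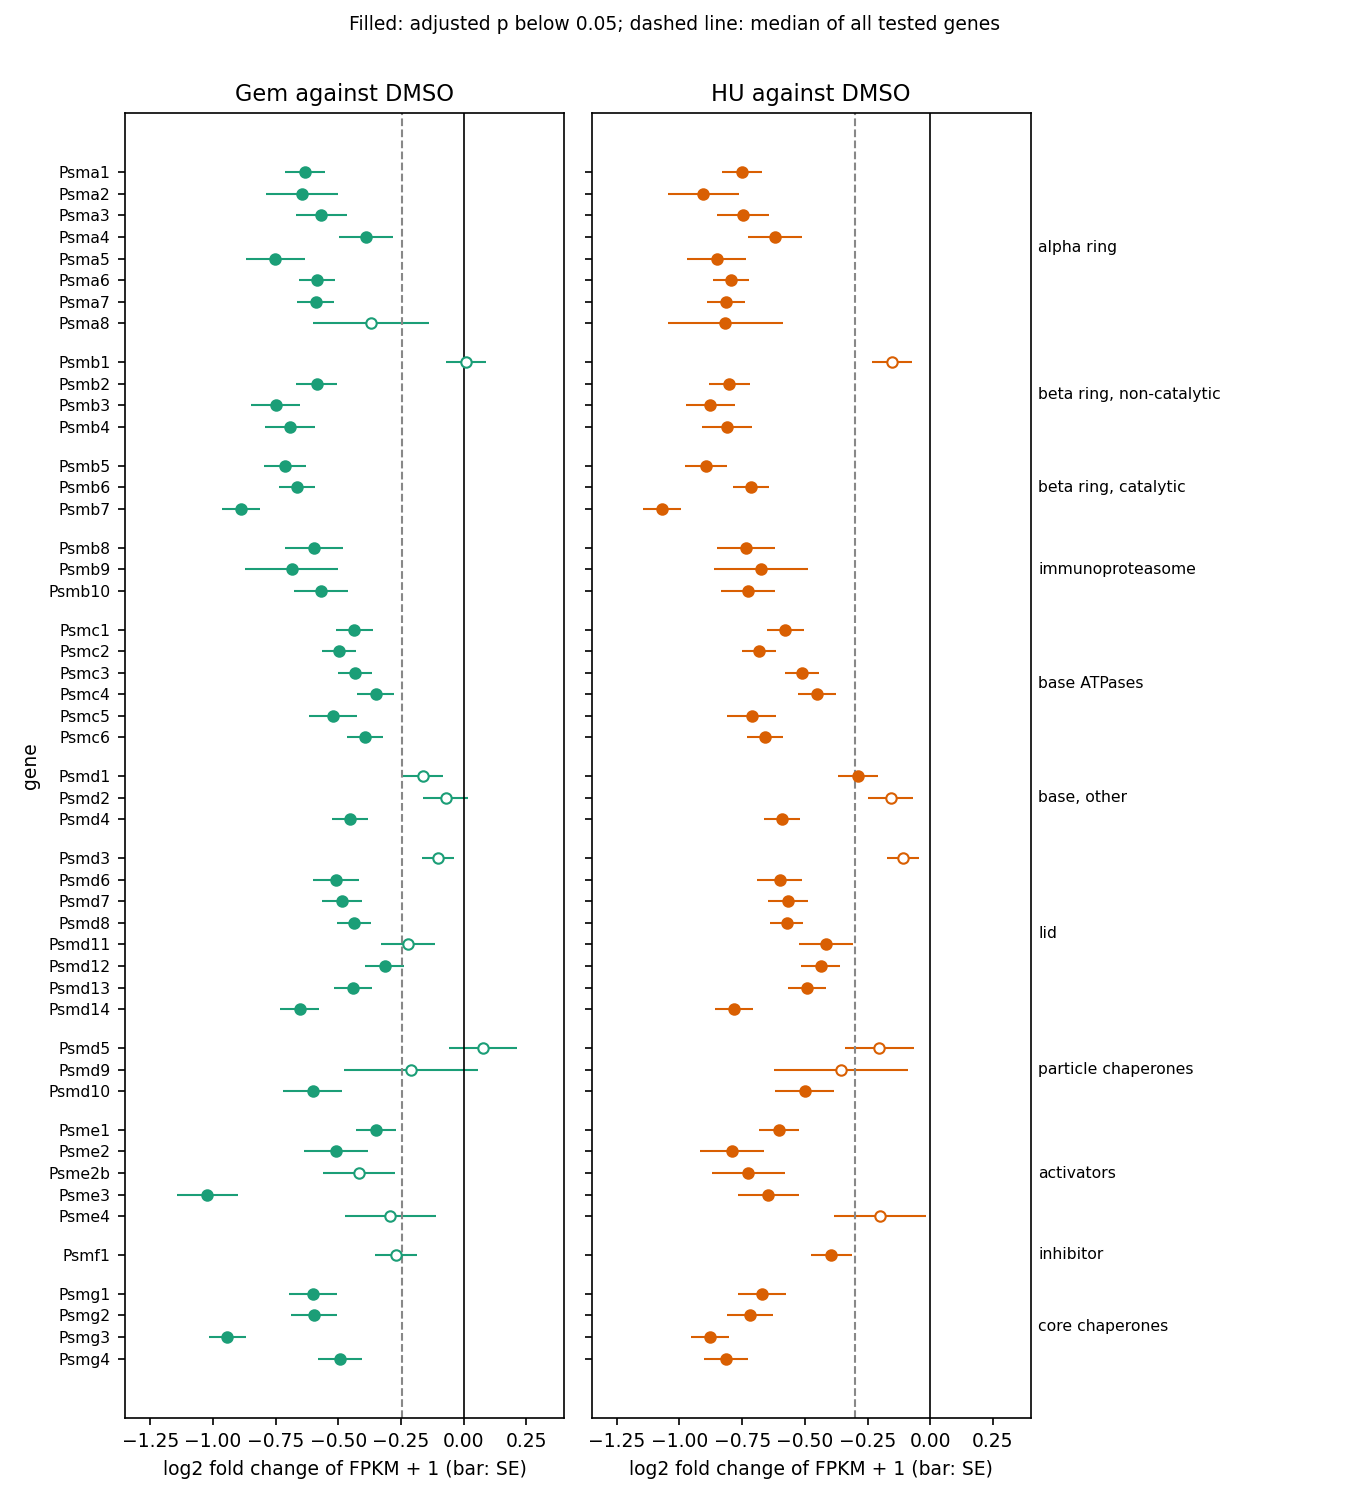
Log2 fold change of FPKM + 1 against DMSO (horizontal axis) for each of the 48 genes (vertical axis, grouped by role), in Gem on the left and in HU on the right. Bars are SE from limma, filled points have an adjusted p under 0.05 and the dashed line is the median of all 13865 tested genes (-0.25 and -0.30). Most points lie to the left of that line, while Psmb1, Psmd1, Psmd2, Psmd3 and Psmd5 lie to its right in both panels.

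In the core particle 13 of 15 genes fell in Gem and 14 of 15 in HU, with median log2 fold changes of -0.63 and -0.81 (-0.38 and -0.51 relative to all tested genes). The shares of all tested genes that fell were 23.2% and 35.5%. After scaling 2 and 12 of the 15 fell, beside 0.512% and 5.74% of all tested genes. The alpha ring had 7 of its 8 genes lower in Gem and 8 of 8 in HU. Psma7, its most abundant member, stood at 427, 426 and 384 FPKM in DMSO, 279 and 267 in Gem and 235 and 232 in HU. Psma5, with the lowest fold change of the ring in Gem, stood at 221, 205 and 170.1 FPKM in DMSO, 124 and 110.0 in Gem and 106 and 112 in HU. In both genes every treated library was below every DMSO library, as in 50.4% of all tested genes in Gem and 53.9% in HU. The log2 fold changes were -0.59 ± 0.075 (SE) and -0.81 ± 0.075 for Psma7 and -0.75 ± 0.12 and -0.85 ± 0.12 for Psma5, in the order Gem and HU. Their limma adjusted p-values were 0.00632 and 0.00102, and 0.00837 and 0.00212. After scaling 0 alpha genes passed in Gem and 6 of 8 in HU, the exceptions being Psma4 and Psma8. The low Psma8, at 4.17, 5.53 and 8.04 FPKM in DMSO, 4.29 and 4.13 in Gem and 2.60 and 3.06 in HU, overlapped with DMSO in Gem and not in HU (limma adjusted p = 0.271 and 0.0273). In the alpha ring some calls were lost with another library left out (limma adjusted p in brackets), namely Psma2 in Gem without DMSO replicate 1 (0.0594), DMSO replicate 2 (0.0517) or Gem replicate 1 (0.0643), Psma4 in Gem without DMSO replicate 1 (0.106), DMSO replicate 2 (0.0809) or Gem replicate 1 (0.0734), and Psma8 in HU without DMSO replicate 2 (0.0564), Gem replicate 1 (0.0514), Gem replicate 2 (0.0515), HU replicate 1 (0.153) or HU replicate 2 (0.0888).

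The beta ring without catalytic sites split. Psmb2, Psmb3 and Psmb4, which encode the beta4, beta3 and beta7 subunits, fell in both drugs as deposited, with log2 fold changes of -0.59, -0.75 and -0.69 in Gem and -0.80, -0.88 and -0.81 in HU. Of all tested genes 23.2% fell in Gem and 35.5% in HU as deposited. After scaling 0 of Psmb2, Psmb3 and Psmb4 passed in Gem and 3 in HU, beside 0.512% and 5.74% of all tested genes. Psmb3 stood at 347, 345 and 309 FPKM in DMSO, 215 and 182 in Gem and 174 and 188 in HU. By contrast Psmb1, which encodes beta6, stood at 149.8, 145 and 129.7 FPKM in DMSO, 145 and 139 in Gem and 126 and 128 in HU. Its Gem libraries lay within the range of DMSO and its HU libraries just under it. The log2 fold changes were 0.011 ± 0.08 (limma adjusted p = 0.936) and -0.15 ± 0.08 (adjusted p = 0.165) as deposited, and 0.30 and 0.20 after trimmed-mean scaling, without a call on either of these scales. Psmb1 is the 1 core gene that did not pass in either drug as deposited. Other settings gave Psmb1 calls in opposite directions: lower in HU without DMSO replicate 3 (limma adjusted p = 0.042), and higher in both drugs with quantile normalization (0.44 and 0.44 on the log2 scale, adjusted p = 0.0446 and 0.0222).

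The constitutive catalytic subunits fell as deposited in both drugs, beside 23.2% and 35.5% of all tested genes. Psmb5, the gene of beta5 with the highest mean DMSO level of the 48, stood at 459.9, 433 and 409 FPKM in DMSO, 278 and 251 in Gem and 225 and 240.4 in HU. Psmb6 (beta1) stood at 430.2, 405 and 437 FPKM in DMSO, 269 and 265 in Gem and 267 and 249 in HU. Psmb7 (beta2) stood at 108, 107 and 104 FPKM in DMSO, 60.6 and 53.4 in Gem and 49.5 and 50.6 in HU. Every treated library was below every DMSO library in these genes, as in 50.4% of all tested genes in Gem and 53.9% in HU. The Gem and HU libraries of Psmb6 overlapped each other. The mean differed from DMSO by -39.1% and -46.4% for Psmb5, by -37.02% and -39.1% for Psmb6 and by -46.3% and -52.9% for Psmb7, in Gem and HU. The log2 fold changes were -0.71 ± 0.084 and -0.90 ± 0.084 for Psmb5 (limma adjusted p = 0.00575 and 0.00102), and -0.66 ± 0.07 and -0.71 ± 0.07 for Psmb6 (adjusted p = 0.00563 and 0.00102). Psmb7 changed by -0.89 ± 0.076 and -1.07 ± 0.076 (adjusted p = 0.00545 and 0.00102), the lowest value of the 48 in HU. After scaling Psmb7 fell by 0.60 and 0.72 on the log2 scale (adjusted p = 0.0164 and 0.00354), and Psmb5 also passed in both drugs, whereas Psmb6 passed in HU (0.0271) and not in Gem (0.0736). With a correction for exonic length (all annotated exons of a gene merged) and level, Psmb7 remained called in both (-0.51 and -0.59). It lost its Gem call in 1 of the settings tried, without Gem replicate 2 (adjusted p = 0.0581). Psmb7 shares 405 of its 3421 exonic bases with Nek6 on the other strand, and the labels do not state whether strand was used in counting.

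The 3 immunoproteasome genes also fell as deposited in both drugs, beside 23.2% and 35.5% of all tested genes, and none of them passed after scaling. Psmb8 (beta5i) stood at 480.4, 439.9 and 368 FPKM in DMSO, 293 and 271 in Gem and 249 and 263 in HU, near the levels of Psmb5. Psmb9 (beta1i) stood at 90.2, 96.2 and 62.5 FPKM in DMSO, 51.2 and 49.5 in Gem and 57.04 and 45.01 in HU. Psmb10 (beta2i) stood at 139, 133 and 109.7 FPKM in DMSO, 82.5 and 87.6 in Gem and 74.1 and 78.01 in HU. In all 3 every treated library was below every DMSO library, as in 50.4% of all tested genes in Gem and 53.9% in HU. The Gem and HU libraries of Psmb9 overlapped each other. DMSO replicate 3 was the lowest DMSO library of all 3 genes, as it was of Psmb5 and Psmb7. In Psmb9 it was close to HU replicate 1. The log2 fold changes in Gem were -0.60 ± 0.11 for Psmb8, -0.69 ± 0.19 for Psmb9 and -0.57 ± 0.11 for Psmb10 (limma adjusted p = 0.0129, 0.0356 and 0.0125). In HU they were -0.74 ± 0.11, -0.68 ± 0.19 and -0.73 ± 0.11 (adjusted p = 0.00328, 0.0252 and 0.00271). After scaling the values were -0.30, -0.40 and -0.28 in Gem and -0.38, -0.33 and -0.38 in HU, with adjusted p-values of 0.184, 0.316 and 0.214, and of 0.052, 0.309 and 0.0528. The Psmb9 call held in 1 of the 7 settings that left out a library, in each drug: that without DMSO replicate 3 (adjusted p = 0.0064 and 0.00299). In the other 6 the adjusted p ranged from 0.0588 to 0.184 in Gem and from 0.0504 to 0.174 in HU. Without Gem replicate 1 the Gem calls of Psmb8 (0.0528) and Psmb10 (0.0719) were lost as well. Psmb8 and Psmb9 lie in the MHC region of chromosome 17 (GRCm38, 34197721 to 34201454 and 34181987 to 34187764), where Psmb9 shares 212 exonic bases with Tap1 on the other strand and Psmb8 498 with the antisense gene Gm20496.

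**Figure D2:**
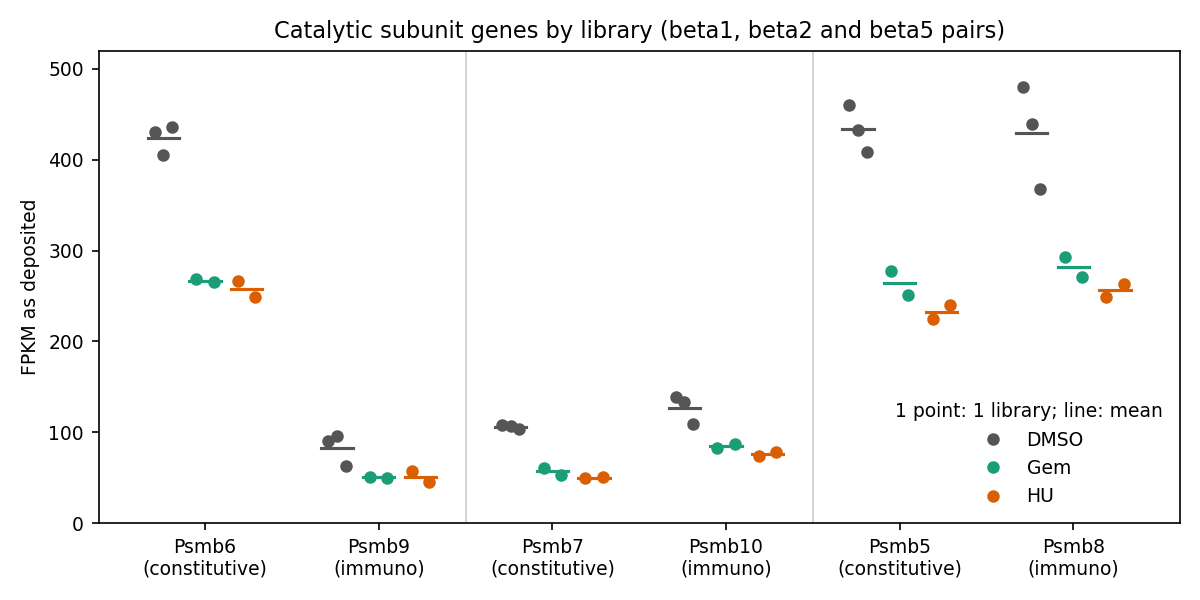
FPKM as deposited (vertical axis, from 0) of the 6 catalytic genes in each library, in pairs of a constitutive subunit and its immunoproteasome counterpart; points are single libraries and lines are group means. Within each gene the 2 Gem and 2 HU libraries lie below the 3 DMSO libraries, and DMSO replicate 3 is the lowest DMSO point of every gene but Psmb6.

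The promoters of Psmb5 and Psmb6 and of their immunoproteasome counterparts Psmb8 and Psmb9 are shown. RefSeq promoters (GRCm38.p6, 300 bases around the start of a RefSeq gene) matched 40 of the 48 genes. The outer start of the GENCODE gene lies inside 32 of these windows and outside 8, among them Psmb8 and Psmb9, whose windows begin 224 and 184 bases downstream of it; the letters at that start were not searched. Capitals mark matches, on either strand, to TGACNNNGC, the core of the antioxidant response element through which Nfe2l1 and Nfe2l2 act, and to CCAAT, the box bound by NF-Y. The regions are chr14:54617946-54618245 (minus strand) for Psmb5, chr11:70525107-70525406 (plus strand) for Psmb6, chr17:34197945-34198244 (plus strand) for Psmb8 and chr17:34187281-34187580 (minus strand) for Psmb9, each printed 5′ to 3′ along the gene.
Psmb5: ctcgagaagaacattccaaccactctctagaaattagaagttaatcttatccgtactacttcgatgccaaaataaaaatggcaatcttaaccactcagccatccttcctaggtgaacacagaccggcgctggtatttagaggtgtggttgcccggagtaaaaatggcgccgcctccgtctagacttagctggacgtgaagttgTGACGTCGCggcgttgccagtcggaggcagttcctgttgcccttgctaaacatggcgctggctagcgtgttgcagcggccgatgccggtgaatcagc
Psmb6: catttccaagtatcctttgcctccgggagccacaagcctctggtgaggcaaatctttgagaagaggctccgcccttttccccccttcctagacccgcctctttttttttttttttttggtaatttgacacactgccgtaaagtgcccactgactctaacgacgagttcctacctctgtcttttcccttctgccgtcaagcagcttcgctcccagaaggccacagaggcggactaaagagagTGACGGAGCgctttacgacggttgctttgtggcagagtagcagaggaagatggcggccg
Psmb8: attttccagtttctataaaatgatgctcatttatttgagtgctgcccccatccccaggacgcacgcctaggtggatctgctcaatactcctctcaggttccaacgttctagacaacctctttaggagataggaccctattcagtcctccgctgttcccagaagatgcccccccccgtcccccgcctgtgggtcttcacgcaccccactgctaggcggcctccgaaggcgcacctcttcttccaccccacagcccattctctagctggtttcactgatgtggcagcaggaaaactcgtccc
Psmb9: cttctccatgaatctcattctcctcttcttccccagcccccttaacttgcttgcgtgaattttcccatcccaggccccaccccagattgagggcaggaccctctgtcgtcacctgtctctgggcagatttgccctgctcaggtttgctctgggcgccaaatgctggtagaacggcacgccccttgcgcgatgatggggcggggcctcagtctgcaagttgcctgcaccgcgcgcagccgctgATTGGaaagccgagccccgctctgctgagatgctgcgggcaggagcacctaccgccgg
The first motif is in the Psmb5 and Psmb6 windows, and in 6 of the 40 windows in all (15%), against 12.5% of 27025 RefSeq promoters of the same length. CCAAT is in 13 of 40 (32.5%, against 37.9%), among them Psmb9 in the reverse orientation. The core of the interferon-stimulated response element, searched as GAAA, 2 free bases and GAAA, is in 5 of 40 (12.5%, against 3.49%), namely Psmb3, Psmd4, Psmd9, Psme1 and Psmg4, and in 0 of the 3 immunoproteasome windows. Of these, the windows of Psmd9 and Psme1 begin 58527 and 121 bases downstream of the outer GENCODE start. The NF-kB motif, searched as GGGA, 2 free bases, T, 1 free base and CC, is in 1 of 40 (2.5%, against 3.92%). These are counts of letters in these windows. Psmb7 had no window, and that of Psmb10 held none of these motifs.

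Set against each other within a library, the immunoproteasome and constitutive catalytic genes kept about the same distance in the treated libraries as in DMSO replicates 1 and 2. The mean log2(FPKM + 1) of Psmb8, Psmb9 and Psmb10 minus that of Psmb5, Psmb6 and Psmb7 was -0.61, -0.58 and -0.95 in DMSO, -0.62 and -0.53 in Gem and -0.50 and -0.57 in HU. All 4 treated libraries lay close to DMSO replicates 1 and 2, and DMSO replicate 3 stood below the rest. The group means differed by 0.14 in Gem and 0.18 in HU, less than the SD of 0.21 among the DMSO libraries, and by 0.018 and 0.060 without DMSO replicate 3. By pair, Psmb8 minus Psmb5 differed from DMSO by 0.12 in Gem and 0.16 in HU, and Psmb9 minus Psmb6 by -0.022 and 0.038. Psmb10 minus Psmb7 was 0.36, 0.31 and 0.081 in DMSO, 0.44 and 0.70 in Gem and 0.57 and 0.61 in HU, where every treated library was above every DMSO library.

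**Figure D3:**
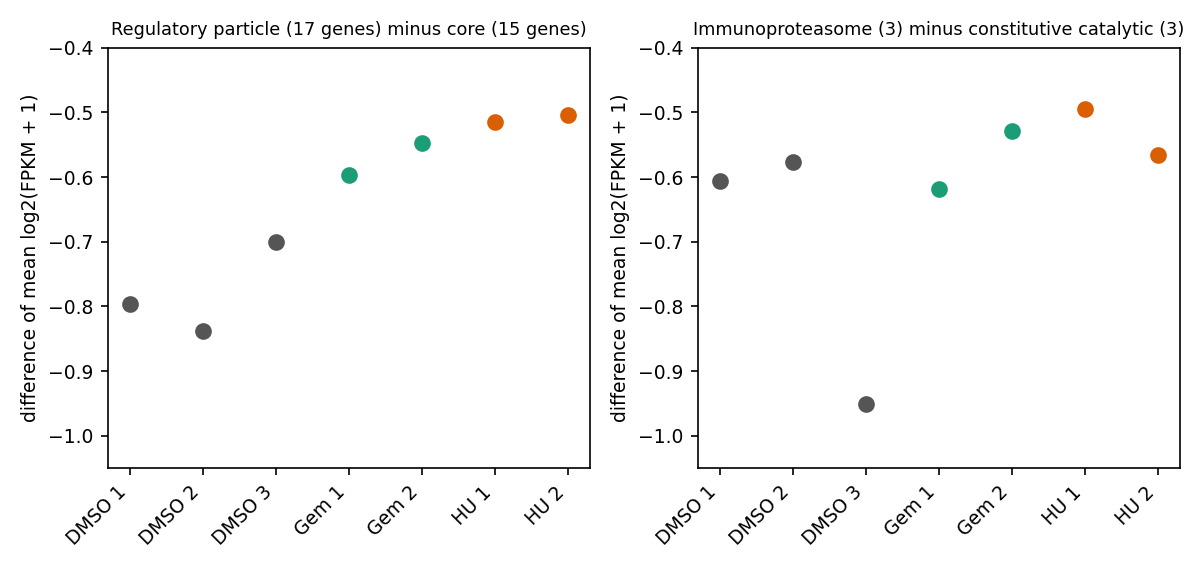
Difference of mean log2(FPKM + 1) in each library (vertical axis) between the regulatory particle and the core genes on the left, and between the immunoproteasome and the constitutive catalytic genes on the right. On the left all 4 treated points (-0.60 to -0.50) lie above the DMSO points (-0.84 to -0.70), and on the right they lie beside DMSO replicates 1 and 2.

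In the regulatory particle 13 of 17 genes fell in Gem and 15 of 17 in HU, with median log2 fold changes of -0.44 and -0.57 (-0.19 and -0.27 relative to all tested genes). The shares of all tested genes that fell were 23.2% and 35.5%. After scaling 0 and 4 fell, the latter being Psmc2, Psmc5, Psmc6 and Psmd14, beside 0.512% and 5.74% of all tested genes. With the length and level correction the medians were -0.027 and -0.0060, next to -0.019 and -0.025 for all tested genes. The mean log2(FPKM + 1) of the 17 genes minus that of the 15 core genes was -0.80, -0.84 and -0.70 in DMSO, -0.60 and -0.55 in Gem and -0.51 and -0.50 in HU. The group means thus stood 0.21 and 0.27 above that of DMSO, and no treated library overlapped with DMSO.

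All 6 ATPase genes of the base fell in both drugs as deposited, beside 23.2% and 35.5% of all tested genes. After scaling 0 of the 6 fell in Gem and 3 in HU, beside 0.512% and 5.74%. Psmc2 stood at 94.6, 90.5 and 93.8 FPKM in DMSO, 64.6 and 66.5 in Gem and 55.7 and 59.4 in HU, and Psmc3, the most abundant of them, at 154, 146 and 145 FPKM in DMSO, 113 and 106 in Gem and 101 and 106 in HU. Their Gem and HU libraries were below all DMSO libraries, as in 50.4% of all tested genes in Gem and 53.9% in HU. Psmc2 changed by -0.50 ± 0.068 in Gem (limma adjusted p = 0.00687) and -0.68 ± 0.068 in HU (0.00105), and Psmc3 by -0.43 ± 0.068 (0.00845) and -0.51 ± 0.068 (0.00199). The range of the 6 was -0.52 to -0.35 in Gem and -0.71 to -0.45 in HU. The Gem call of Psmc4 was lost without DMSO replicate 1 (0.0529).

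Of the other base genes, Psmd4, a ubiquitin receptor, fell in both drugs (-0.45 and -0.59; limma adjusted p = 0.0084 and 0.00151). The scaffold genes Psmd1 and Psmd2 had smaller fold changes. Psmd2 stood at 155, 159 and 186 FPKM in DMSO, 158 and 158 in Gem and 147 and 150.4 in HU. Its Gem libraries lay inside the DMSO range and its HU libraries below it, and its log2 fold changes of -0.071 and -0.16 did not pass (adjusted p = 0.589 and 0.199). Psmd1 stood at 70.3, 69.6 and 79.3 FPKM in DMSO, 66.3 and 63.8 in Gem and 58.7 and 60.5 in HU, and passed in HU only as deposited (-0.29, adjusted p = 0.0263; -0.16 and 0.175 in Gem). After scaling its sign turned in both drugs, to 0.13 and 0.061. A call was also lost for Psmd1 in HU without DMSO replicate 1 (0.0504), HU replicate 1 (0.117) or HU replicate 2 (0.0762).

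In the lid 6 of 8 genes fell in Gem and 7 of 8 in HU, beside 23.2% and 35.5% of all tested genes. After scaling 0 and 1 of the 8 fell, beside 0.512% and 5.74%. Psmd14, the deubiquitinase that removes chains from substrates, had the lowest fold change, at 112, 104 and 104 FPKM in DMSO, 70.9 and 63.9 in Gem and 60.4 and 62.5 in HU. It fell by 0.65 ± 0.076 in Gem and 0.78 ± 0.076 in HU on the log2 scale (limma adjusted p = 0.00575 and 0.00102), and after scaling it passed in HU (0.0124) and not in Gem (0.0601). Psmd8, the most abundant lid gene, and Psmd7 and Psmd6 fell by 0.44 to 0.51 in Gem and by 0.57 to 0.60 in HU. The scaffold gene Psmd3 stood at 68.1, 65.98 and 67.8 FPKM in DMSO, 62.6 and 62.7 in Gem and 61.4 and 63.4 in HU. All 4 treated libraries were just below DMSO, and the log2 fold changes of -0.10 and -0.11 did not pass (adjusted p = 0.277 and 0.219). Scaling turned them to 0.19 and 0.24, and with the length and level correction Psmd3 was the 1 member called higher, in HU (0.33, adjusted p = 0.048), where 1.05% of the tested genes were. Psmd11 stood at 148, 119 and 135 FPKM in DMSO, 120.2 and 109 in Gem and 105 and 94.5 in HU, and passed in HU as deposited (adjusted p = 0.0196) and not in Gem (0.17). Calls of the lid were lost with a library left out for Psmd11 in HU without DMSO replicate 1 (0.0551), HU replicate 1 (0.0595) or HU replicate 2 (0.124), for Psmd12 in Gem without DMSO replicate 1 (0.0809), DMSO replicate 2 (0.0505) or Gem replicate 1 (0.0644), and for Psmd13 in Gem without Gem replicate 1 (0.052).

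Among the activators, which cap the core in place of the regulatory particle, Psme3 had the lowest fold change in Gem. Psme3, the subunit of the nuclear activator PA28gamma, stood at 42.8, 34.9 and 33.9 FPKM in DMSO, 17.2 and 18.3 in Gem and 25.03 and 21.7 in HU, so that its Gem libraries were lowest and its HU libraries lay between Gem and DMSO. It fell by 1.02 ± 0.12 in Gem (limma adjusted p = 0.00575), the lowest value of the 48 there, and by 0.65 ± 0.12 in HU (0.00618). After scaling it passed in Gem (-0.74, adjusted p = 0.0446) and not in HU (-0.31, 0.168). The difference between Gem and HU was -0.38 ± 0.13 and did not pass (adjusted p = 0.384). The HU call of Psme3 was lost without HU replicate 2 (0.0513), and its Gem call, as all Gem calls of the 48, without Gem replicate 2.

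Psme1 and Psme2 encode the interferon-inducible activator PA28alpha and beta. Psme1 stood at 195, 186 and 181 FPKM in DMSO, 156 and 138 in Gem and 126 and 119 in HU. Psme2 stood at 230.3, 224 and 172 FPKM in DMSO, 151 and 139 in Gem and 117 and 121 in HU. Both fell as deposited, Psme1 by 0.35 and 0.60 and Psme2 by 0.51 and 0.79 on the log2 scale in Gem and HU (limma adjusted p = 0.02, 0.00192, 0.0285 and 0.00376), and neither passed after scaling. DMSO replicate 3 was the lowest DMSO library of both genes, as of the immunoproteasome genes. It was also lowest in the sum of the 48 genes (6785 FPKM, against 7540 and 7139 in DMSO replicates 1 and 2). In the sum of the regulatory particle it was not (1974 FPKM, against 1999 and 1879). Psme2b, a copy of Psme2 that may share its reads and is uncertain, stood at 27.2, 19.1 and 22.4 FPKM in DMSO, 16.5 and 16.9 in Gem and 12.6 and 14.02 in HU and passed in HU only (adjusted p = 0.0075, and 0.0718 in Gem). Psme4, which encodes the large activator PA200, stood at 9.38, 5.98 and 7.83 FPKM in DMSO, 6.41 and 5.68 in Gem and 5.98 and 7.06 in HU; its groups overlapped in both drugs and it did not pass (adjusted p = 0.27 and 0.411). The inhibitor gene Psmf1 was lower in every treated library, at 24.9, 25.3 and 23.1 FPKM in DMSO, 19.9 and 20.1 in Gem and 18.8 and 17.9 in HU, and passed in HU (-0.39, adjusted p = 0.0093) and not in Gem (-0.27, 0.0512). The Gem call of Psme1 was lost without DMSO replicate 1 or 2 (0.0701 and 0.0501), that of Psme2 without any 1 library other than DMSO replicate 3 (0.0595 to 0.179), and the HU call of Psme2b without HU replicate 1 (0.0669). Conversely Psme2b passed in Gem without DMSO replicate 2 (0.0387), and Psmf1 without DMSO replicate 3 (0.0443).

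All 4 chaperone genes of core assembly fell in both drugs as deposited, beside 23.2% and 35.5% of all tested genes. After scaling 1 of the 4 passed in Gem (Psmg3) and 3 in HU (Psmg2, Psmg3 and Psmg4), beside 0.512% and 5.74% of all tested genes. Psmg3, whose product pairs with that of Psmg4 to help build the alpha ring, stood at 41.6, 40.1 and 39.9 FPKM in DMSO, 20.9 and 20.4 in Gem and 20.9 and 22.3 in HU. The treated libraries lay within a narrow band well below DMSO, and the DMSO libraries agreed closely with each other. Psmg3 changed by -0.94 ± 0.075 in Gem and -0.88 ± 0.075 in HU (limma adjusted p = 0.00545 and 0.00102). It also passed after scaling (-0.66 and -0.54, adjusted p = 0.0141 and 0.00919) and with the length and level correction (-0.57 and -0.42, 0.0333 and 0.0353). Psmg3 and Psmb7 were the 2 of the 48 genes called lower with that correction, in both drugs, against 0.147% of tested genes in Gem (0.287% higher) and 1.13% in HU, and Psmg3 too lost its Gem call without Gem replicate 2 (adjusted p = 0.0605). Psmg4 stood at 91.7, 86.4 and 77.98 FPKM in DMSO, 57.7 and 62.8 in Gem and 47.8 and 48.2 in HU, and fell by 0.49 and 0.81. Psmg1 and Psmg2 fell by 0.60 and 0.60 in Gem and 0.67 and 0.72 in HU. The Gem call of Psmg4 was also lost without Gem replicate 1 (0.0618).

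Of the 3 chaperones of the regulatory particle, Psmd10 (gankyrin) fell in both drugs as deposited (-0.60 and -0.50; limma adjusted p = 0.0132 and 0.0134) and the others did not pass. Psmd5 stood at 46.7, 43.8 and 36.3 FPKM in DMSO, 47.6 and 41.4 in Gem and 32.9 and 40.3 in HU, with overlap between each drug and DMSO and log2 fold changes of 0.076 and -0.20 (adjusted p = 0.711 and 0.272). Psmd9 stood at 27.9, 23.1 and 16.1 FPKM in DMSO, 18.5 and 19.04 in Gem and 22.3 and 12.7 in HU, likewise with overlap. Of its 7248 exonic bases 1849 (25.5%) are shared with the gene Gm26745 on the other strand. The calls of Psmd10 were lost in Gem without Gem replicate 1 (0.0767) and in HU without HU replicate 1 (0.0761).

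Within the 48 genes the longer ones had fold changes closer to 0. The log2 fold change went with the log2 of the exonic length with a Pearson r of 0.46 in Gem and 0.59 in HU (Spearman rho 0.43 and 0.49), across genes that share the same libraries and are not independent. Across the 13610 tested genes with a length, r was -0.15 in both drugs and rho 0.075 and 0.086. The 48 genes had a median exonic length of 2804 bases, against 3728.5 for the tested genes. The genes that did not pass in either drug were Psmb1 (4595 bases), Psmd2 (4038), Psmd3 (4967), Psmd5 (7230), Psmd9 (7248) and Psme4 (8382), all longer than that median. Psmb7 (3421) and Psmg3 (2893) lay below other members of like length, apart from Psme3 (2949) in Gem. The part of length in the fold changes was not tested by itself, as the correction named above takes out length and level together. Under that correction the median of the 48 genes was -0.11 in Gem and -0.12 in HU, next to -0.019 and -0.025 for all tested genes.

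**Figure D4:**
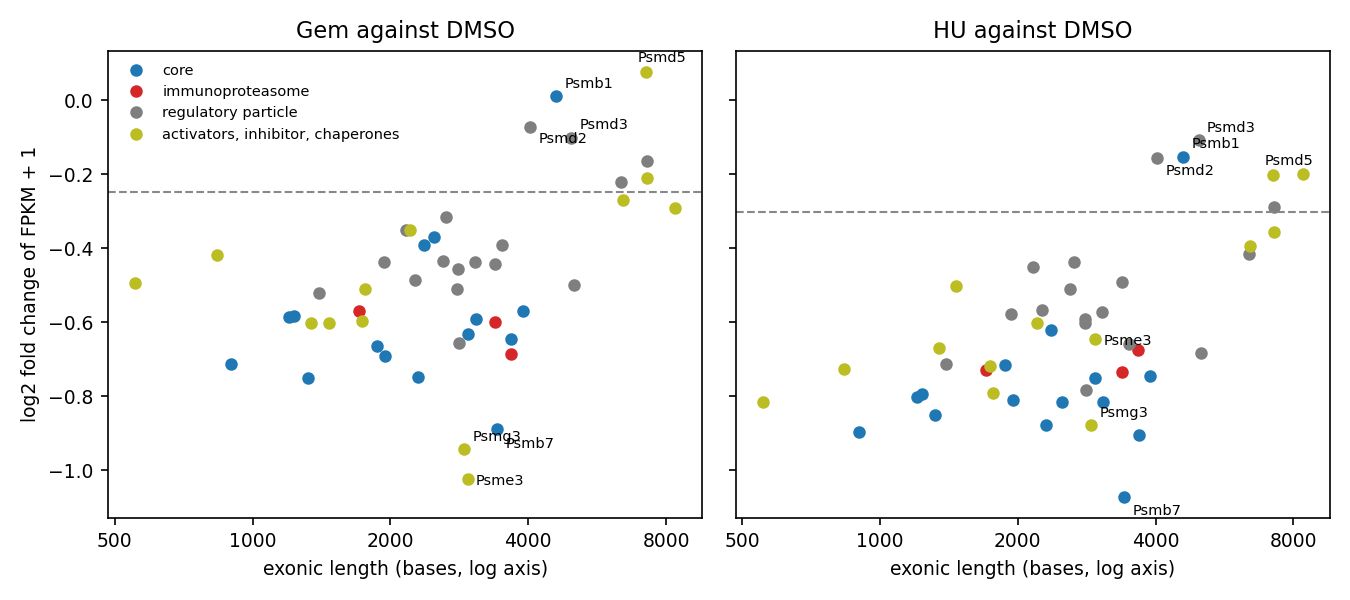
Log2 fold change of FPKM + 1 against DMSO (vertical axis) and exonic length in bases (horizontal log axis) of the 48 genes, in Gem on the left and HU on the right, coloured by part of the proteasome; the dashed line is the median of all tested genes. The points rise to the right (r = 0.46 and 0.59), with Psmb7 and Psmg3 below the others of their length, as is Psme3 in Gem.

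Gem and HU were also compared directly. By limma 0 of the 48 genes differed at an adjusted p under 0.05, and 8 at an unadjusted p under 0.05, where 0.0793% of tested genes were called lower and 0.0216% higher in Gem. The log2 differences ran from -0.38 (Psme3) to 0.45 (Psma8), and 43 of 48 were above 0, with a median of 0.14 against 0.056 for all tested genes. The 3 with the smallest p were Psmc6 (0.27 ± 0.079), Psmg4 (0.32 ± 0.096) and Psme1 (0.25 ± 0.087), with adjusted p-values of 0.325, 0.328 and 0.374. For Psmc6, an ATPase gene, the libraries stood at 78.5, 73.8 and 77.5 FPKM in DMSO, 60.4 and 55.9 in Gem and 47.4 and 48.9 in HU, without overlap between the 3 groups. These p-values do not show that the drugs acted alike.

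Genes that work with the proteasome under other names were followed from 7 lists with 44 tested genes; in Gem 10 of them fell, a share near the 23.2% of all tested genes that fell, and 2 rose. In HU 30 fell, against 35.5% of all tested genes, and 2 rose. After scaling 0 fell and 3 rose in Gem (0.512% and 0.476% of all tested genes), and 2 fell and 3 rose in HU (5.74% and 4.62%). The median log2 fold changes were -0.22 and -0.36, or 0.067 and -0.022 after scaling. Of the 4 subunits and deubiquitinases with names of their own, 2 fell in Gem and 4 in HU. Uchl5, a deubiquitinase of the regulatory particle, stood at 66.0, 65.1 and 68.9 FPKM in DMSO, 51.8 and 42.3 in Gem and 36.4 and 35.4 in HU, all treated libraries being lower, and changed by -0.50 ± 0.096 (limma adjusted p = 0.0128) and -0.87 ± 0.096 (0.00127); it passed after scaling in HU (0.0163). Sem1, a small lid subunit, changed by -0.55 (adjusted p = 0.0555) and -0.91 (0.00636), and Adrm1, a ubiquitin receptor, by -0.35 (0.012) and -0.30 (0.0103). Of 4 maturation and adaptor genes 0 passed in Gem and 3 in HU, among them Pomp, the maturation factor of the core (-0.72, 0.0152), and Txnl1 (-0.36, 0.0126). Calls lost with 1 library left out, beyond those in Gem without Gem replicate 2, were Adrm1 in Gem without Gem replicate 1 (0.0501), Adrm1 in HU without HU replicate 1 (0.054), Sem1 in HU without HU replicate 2 (0.0609), Pomp in HU without HU replicate 1 (0.0508) or HU replicate 2 (0.119), and Txnl1 in HU without HU replicate 2 (0.0719).

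Of 7 regulators of proteasome genes 0 passed in Gem and 5 fell in HU, where 23.2% and 35.5% of all tested genes fell, and 0 passed after scaling. Nfe2l1, the factor that raises proteasome transcription when the protease is inhibited, stood at 24.5, 24.5 and 26.1 FPKM in DMSO, 20.9 and 21.2 in Gem and 21.5 and 20.3 in HU, below DMSO in all treated libraries (limma adjusted p = 0.064 in Gem and 0.0408 in HU), and its sign turned after scaling (0.043 and 0.089). Ddi2, the protease that activates it, changed by -0.22 (0.104) and -0.46 (0.00605), and Nfe2l2 by -0.34 (0.0763) and -0.59 (0.00831). The HU call of Nfe2l1 was lost without any 1 of the 7 libraries (0.058 to 0.135), and that of Nfe2l2 without HU replicate 1 (0.0736). Of 9 genes for substrate extraction and shuttling 4 fell in Gem and 5 in HU, beside the same shares of all tested genes. Ubqln1, a shuttle gene, fell by 0.41 and 0.40, and Ufd1, of the extraction complex, by 0.44 and 0.47.

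Among the ubiquitin genes, Ubb, a stress-inducible gene of ubiquitin repeats, stood at 1463, 1356 and 1408 FPKM in DMSO, 1925 and 1762 in Gem and 1677 and 1909 in HU. It was higher in every treated library than in every DMSO library; it was picked out after its values were seen, and its repeats may share reads with other ubiquitin genes, so its value is uncertain. Ubb rose by 0.39 ± 0.095 (limma adjusted p = 0.026) and 0.34 ± 0.095 (0.0248), and after scaling by 0.68 and 0.70, which also passed. As deposited its calls rested on single libraries: Ubb did not pass without DMSO replicate 1 (adjusted p = 0.0662 in Gem and 0.0541 in HU), without DMSO replicate 2 (0.0690 and 0.0656), in Gem without either Gem library (0.136 and 0.103) and in HU without HU replicate 2 (0.147). Rps27a, which encodes ubiquitin fused to a ribosomal protein, changed by -0.10 (0.534) and -0.55 (0.00721), and the activating enzyme Uba1 by -0.30 (0.0239) and -0.34 (0.00911). Calls were likewise lost for Rps27a in HU without HU replicate 2 (0.0615), and for Uba1 in Gem without DMSO replicate 1 (0.0679) or Gem replicate 1 (0.106).

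Of 9 genes that load peptides on MHC class I, 1 fell in Gem and 7 in HU, against 23.2% and 35.5% of all tested genes, and 0 passed after scaling, where 0.512% and 5.74% of tested genes fell. The chaperone gene Calr fell in both (-0.40, limma adjusted p = 0.0213, and -0.38, 0.0161). Tap1, the peptide transporter gene beside Psmb9, named for its place after its values were seen, stood at 50.97, 52.5 and 50.6 FPKM in DMSO, 44.9 and 43.9 in Gem and 45.4 and 41.2 in HU, and passed in HU (-0.24, 0.0349) and not in Gem (-0.21, 0.0782). Erap1, which trims peptides, changed by -0.13 (0.404) and -0.52 (0.00824), and B2m, the light chain of class I, by -0.07 (0.68) and -0.54 (0.00915). Tap2 changed by -0.43 (0.0533) and -0.42 (0.04). Calls lost with 1 library left out were Calr in Gem without DMSO replicate 1 (0.0606) or Gem replicate 1 (0.0895), Calr in HU without HU replicate 2 (0.104), Tap1 in HU without DMSO replicate 1 (0.0834), DMSO replicate 2 (0.0924), Gem replicate 1 (0.0519), Gem replicate 2 (0.0518) or HU replicate 2 (0.136), Erap1 in HU without HU replicate 2 (0.053), and B2m in HU without HU replicate 1 (0.081) or HU replicate 2 (0.0515). The HU call of Tap2 was lost without any 1 library other than DMSO replicate 3 (0.0659 to 0.212), and Tap2 passed in Gem without that library (0.00764). Of the 5 genes that carry the interferon signal to the immunoproteasome, 1 fell in Gem and 2 in HU, beside the same shares of all tested genes. Irf1, the factor that induces it, stood at 44.8, 41.1 and 41.8 FPKM in DMSO, 52.9 and 47.4 in Gem and 41.1 and 47.6 in HU, with both Gem libraries above DMSO. It did not pass as deposited (0.23, adjusted p = 0.112, and 0.056, 0.657), while after scaling it rose in both (0.52, 0.0406, and 0.40, 0.0259). The receptor gene Ifngr1 fell as deposited (-0.30 and -0.37; adjusted p = 0.0185 and 0.00539) and lay at -0.011 and -0.016 after scaling. The Gem call of Ifngr1 was lost without DMSO replicate 1 (0.0685).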

How the data were processed

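RNA-seq was made from total RNA (Geo-seq amplification, TruePrep libraries, per the labels' protocols). The authors deposited 1 table of FPKM values per gene and library, on mm10; Bowtie (0.12.9), Cufflinks (2.1.1), HTSeq and DESeq2 are listed in the submitters' processing notes without their roles. Which annotation and strand setting were used is not given here. The low FPKM values did not fall on steps of whole reads, so depth stays unknown and only the number of libraries and their spread set the precision.

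Values were taken as log2(FPKM + 1), which understates changes of low genes. Genes with at least 1 FPKM in at least 2 of 7 libraries were fitted with limma 3.58.1 (R 4.3.3; mean-variance trend, 3 groups, 4 residual degrees of freedom, two-sided), with Benjamini-Hochberg adjustment over 13865 genes and a threshold of 0.05. The procedure was tested on simulated data in which genes varied independently and whole libraries did not shift. That test therefore does not cover a shift of whole libraries such as that seen here. Trimmed-mean scaling removed 30% of ratios and 5% of levels at each end. The length and level correction was a loess (span 0.3) per library on tested genes other than members. Lengths and coordinates are from GENCODE (GRCm38), promoters from RefSeq (GRCm38.p6). Named genes were all members, the 6 catalytic genes in every comparison, and from each pathway list the 2 with the smallest p per drug; some of the latter are not reported here. Members, lists and tests were chosen with earlier results of these data known. Other settings are given in the closing section. Paaf1, a planned list gene, was not analysed here.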

Additional observations from a re-analysis of the deposited data

How the results depend on the processing

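The fall of the proteasome genes depended on the scaling of the libraries. Of the 48 genes limma called 37 in Gem as deposited, 4 with trimmed-mean scaling, 13 with the same FPKM sum in each library (2.4% of tested genes lower), 3 with quantile normalization (2 lower and Psmb1 higher, against 0.144% and 0.339%) and 2 with the length and level correction. In HU the counts were 42, 19, 20 (5.99% lower), 4 (2 lower, and Psmb1 and Psmd3 higher, against 1.8% and 2.24%) and 3. With 1 library left out the counts ran from 0 (without Gem replicate 2) to 38 in Gem and from 36 to 43 in HU. In Gem against HU the count was 0 in all settings, with 1 to 12 genes at an unadjusted p under 0.05. The remaining settings kept both counts within 1.5 times: another pseudocount (0.1), no filter on low values, a mean FPKM of at least 5, no mean-variance trend, library weights and a model of the 2 compared groups only. With the replicate block, the replicate number as a block, 35 genes passed in Gem, 41 in HU and 0 in Gem against HU. Deviations of same-numbered libraries from their group means correlated at -0.074 to 0.055. With 2 libraries in Gem and 2 in HU such deviations mirror each other within a group. The check therefore cannot say whether the numbers pair the libraries. The block took the calls of Psmd12, Psma4 and Uba1 in Gem (adjusted p = 0.0685, 0.0699 and 0.0651), of Psmd1, Nfe2l1, Tap1 and Ifngr2 in HU (0.068, 0.119, 0.071 and 0.0501), and of Ubb in both (0.0526 and 0.0515). The difference between immunoproteasome and constitutive genes was 0.018 to 0.21 in Gem and 0.060 to 0.25 in HU with 1 library left out, and by pair it moved to -0.022 (Psmb9 minus Psmb6, Gem), 0.32 and 0.34 (Psmb10 minus Psmb7, Gem and HU).

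With trimmed-mean scaling the members with a log2 fold change below 0 went from 46 to 40 of 48 in Gem and from 48 to 42 in HU. For the named genes called as deposited or under the other setting, the sign of the log2 fold change turned upward in the cases that follow. With trimmed-mean scaling it did so in HU for Psmd1 (0.0607), Adrm1 (0.049), Nfe2l1 (0.0887), Uba1 (0.00817) and Tap1 (0.10). With the same FPKM sum it did so in HU for Psmd1 (0.0505), Adrm1 (0.0388), Nfe2l1 (0.0784) and Tap1 (0.0933). With quantile normalization it did so in Gem for Psmc3 (0.00552), Psmd12 (0.0508), Psmc1 (0.00734), Psme1 (0.10), Psmd8 (0.0252), Psmc4 (0.086), Psma4 (0.0617), Adrm1 (0.0556), Uba1 (0.10), Calr (0.028) and Ifngr1 (0.15), and in HU for Psmc3 (0.0544), Psmb1 (0.44), Psmd3 (0.40), Psmd11 (0.14), Psmd12 (0.037), Psme1 (0.000996), Psmd13 (0.0293), Psmd1 (0.23), Psmd8 (0.0364), Psmc4 (0.11), Adrm1 (0.23), Txnl1 (0.15), Nfe2l1 (0.15), Ubqln1 (0.0394), Uba1 (0.18), Tap1 (0.23), Tap2 (0.10), Calr (0.22), Ifngr1 (0.25) and Ifngr2 (0.0659). With the length and level correction it did so in Gem for Psmd12 (0.0828), Psme1 (0.062), Psmc4 (0.0704), Psma4 (0.021), Adrm1 (0.000862), Uba1 (0.042) and Ifngr1 (0.0984), and in HU for Psmc3 (0.0351), Psmd3 (0.33), Psmd11 (0.0275), Psmd12 (0.0621), Psmd1 (0.11), Psmc4 (0.11), Psmd10 (0.0919), Adrm1 (0.17), Txnl1 (0.0555), Nfe2l1 (0.11), Ubqln1 (0.00957), Rps27a (0.0236), Uba1 (0.11), Tap1 (0.16), Tap2 (0.061), B2m (0.0563), Calr (0.19), Ifngr1 (0.20) and Ifngr2 (0.0434). The cause was not tested. The values carry no read depth, so counting error at low levels, as for Psma8 and Psme4, cannot be given.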
